A study of Mus musculus with 2 samples.

Results

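Long noncoding RNA (lncRNA) genes that stand apart from protein-coding promoters were examined for histone H3 trimethylated at lysine 4 (H3K4me3). RefSeq's GRCm38 (mm10) gene list holds 12727 lncRNA genes, of which 9960 had a strand in the sources used. Of these, 7946 had no 5' end of a protein-coding gene with a strand within 5000 bp of their own. They are called remote lncRNA genes here. The other 2014 lay within that distance of a coding 5' end, and 21535 protein-coding genes with a strand served for comparison. Another 352 coding genes had no strand and were left out of the distance and the comparison. The rule for choosing genes used position and annotation and no peak values, but it was set with earlier results of these data known. Both samples were MEL cells, an immortalized mouse line from an erythroleukaemia, which had received 2% DMSO (dimethyl sulphoxide) over 5 days. They were biological replicates 1 and 2 of a single group, with DNA fragments of 150 to 350 bp, and neither genotype nor age is given by the labels. As a transformed line it is a limited model of normal red cell precursors. No effect of DMSO was measured, since cells without it were not analysed here.

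H3K4me3 is laid down around the start sites of genes that RNA polymerase II transcribes or can readily transcribe, and CpG-rich DNA attracts the enzymes that write it. Many lncRNAs are transcribed by the same polymerase and are capped, spliced and polyadenylated like messenger RNAs. Some arise as the divergent partner of a coding promoter, others from enhancers or from promoters of their own. Known lncRNAs coat a chromosome, scaffold nuclear bodies, silence imprinted clusters or serve as hosts from which small RNAs are cut.

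The promoters below are those of genes whose peaks were among the highest or the widest of remote lncRNA genes, followed by 3 genes of known lncRNA lists that had no peak. They let the letters of marked and unmarked starts be read side by side. Each sequence is from the RefSeq promoter table (GRCm38.p6), 300 bases from 250 before the listed start, 5' to 3' on the strand of the gene, with CpG dinucleotides in capitals.

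By mean enrichment value the highest peaks were at Gm33560, then Zeb2os, which is named only, then 4930555B11Rik and BB557941, a divergent pair of lncRNA genes on opposite strands of chromosome 2 whose promoter sequences overlap.
Gm33560 (chr7:141122981-141123280, plus strand): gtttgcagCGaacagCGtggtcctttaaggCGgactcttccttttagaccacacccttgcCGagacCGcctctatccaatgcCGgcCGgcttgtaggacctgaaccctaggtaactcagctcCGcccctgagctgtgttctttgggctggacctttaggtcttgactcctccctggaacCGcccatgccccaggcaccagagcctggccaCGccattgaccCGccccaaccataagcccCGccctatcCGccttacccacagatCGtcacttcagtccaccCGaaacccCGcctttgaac
4930555B11Rik (chr2:57181581-57181880, plus strand): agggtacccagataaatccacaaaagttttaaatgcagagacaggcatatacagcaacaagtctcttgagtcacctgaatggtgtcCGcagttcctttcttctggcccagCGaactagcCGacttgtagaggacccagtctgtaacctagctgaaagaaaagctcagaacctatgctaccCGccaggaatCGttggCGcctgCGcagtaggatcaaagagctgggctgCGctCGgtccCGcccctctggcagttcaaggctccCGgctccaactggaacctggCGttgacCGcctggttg
BB557941 (chr2:57181705-57182004, minus strand): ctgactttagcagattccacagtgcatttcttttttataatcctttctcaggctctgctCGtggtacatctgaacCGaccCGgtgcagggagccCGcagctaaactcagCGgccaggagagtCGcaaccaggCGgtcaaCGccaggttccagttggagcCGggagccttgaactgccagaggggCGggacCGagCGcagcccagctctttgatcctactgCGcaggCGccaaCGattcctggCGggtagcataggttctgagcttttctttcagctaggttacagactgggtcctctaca

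The widest domains were at C230035I16Rik and Gm40833, neighbours on chromosome 13, and at Gm51556 on chromosome 8.
C230035I16Rik (chr13:23430968-23431267, minus strand): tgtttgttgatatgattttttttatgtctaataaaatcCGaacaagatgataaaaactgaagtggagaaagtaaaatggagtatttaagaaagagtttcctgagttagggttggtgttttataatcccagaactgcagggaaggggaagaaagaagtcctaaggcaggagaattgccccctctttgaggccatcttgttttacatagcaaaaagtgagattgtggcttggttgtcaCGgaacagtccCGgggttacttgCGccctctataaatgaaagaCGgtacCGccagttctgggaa
Gm40833 (chr13:23434623-23434922, minus strand): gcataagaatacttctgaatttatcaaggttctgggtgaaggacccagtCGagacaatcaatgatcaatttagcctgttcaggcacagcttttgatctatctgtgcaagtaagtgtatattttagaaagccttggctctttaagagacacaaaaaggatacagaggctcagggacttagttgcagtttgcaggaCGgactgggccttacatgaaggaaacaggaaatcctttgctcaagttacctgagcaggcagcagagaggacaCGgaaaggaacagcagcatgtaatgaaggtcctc
Gm51556 (chr8:120490404-120490703, minus strand): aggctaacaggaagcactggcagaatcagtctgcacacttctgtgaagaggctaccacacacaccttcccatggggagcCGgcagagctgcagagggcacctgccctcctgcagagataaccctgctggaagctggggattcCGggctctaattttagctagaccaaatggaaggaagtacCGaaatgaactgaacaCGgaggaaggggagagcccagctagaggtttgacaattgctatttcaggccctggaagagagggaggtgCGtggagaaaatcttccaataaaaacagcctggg

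No peak was called in either replicate at Airn (the imprinted RNA that silences Igf2r in cis), at Dnm3os (a microRNA host) or at Gm38509 (the table's symbol for Peril, near Sox2).
Airn (chr17:12741061-12741360, plus strand): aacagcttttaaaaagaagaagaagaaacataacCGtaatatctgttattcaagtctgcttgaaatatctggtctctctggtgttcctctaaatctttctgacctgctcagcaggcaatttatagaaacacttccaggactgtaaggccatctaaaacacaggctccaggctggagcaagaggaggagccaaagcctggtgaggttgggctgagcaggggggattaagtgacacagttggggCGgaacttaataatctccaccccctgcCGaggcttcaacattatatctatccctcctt
Dnm3os (chr1:162217373-162217672, plus strand): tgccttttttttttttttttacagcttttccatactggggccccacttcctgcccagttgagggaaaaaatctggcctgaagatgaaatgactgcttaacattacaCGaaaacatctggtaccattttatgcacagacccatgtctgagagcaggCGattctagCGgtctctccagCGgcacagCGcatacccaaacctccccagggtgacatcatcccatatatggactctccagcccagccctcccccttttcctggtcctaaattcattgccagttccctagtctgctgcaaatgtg
Gm38509 (chr3:34771825-34772124, plus strand): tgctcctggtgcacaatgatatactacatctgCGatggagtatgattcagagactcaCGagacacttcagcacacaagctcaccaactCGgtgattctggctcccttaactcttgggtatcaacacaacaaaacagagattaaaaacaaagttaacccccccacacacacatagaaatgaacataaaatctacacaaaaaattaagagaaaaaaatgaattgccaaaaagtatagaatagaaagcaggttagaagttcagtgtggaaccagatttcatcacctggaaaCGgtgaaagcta

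The sequences of Gm33560, 4930555B11Rik and BB557941 hold 16, 13 and 16 CpG. Those of C230035I16Rik, Gm40833 and Gm51556 hold 6, 3 and 5, which is close to the 3, 5 and 4 of the unmarked Airn, Dnm3os and Gm38509. The GC box letters GGGCGG occur 4 times in the Gm33560 sequence, all on the opposite strand, at positions −129, −72, −30 and −12 from the start. The same letters occur once in 4930555B11Rik, BB557941 and Airn. In 4930555B11Rik and BB557941, whose sequences overlap, they are the same bases of the genome. A match of letters is a description and not a binding site.

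Peaks were called separately in each replicate by the authors, 48026 in replicate 1 and 46950 in replicate 2. A gene was called marked when the 2000 bp around its 5' end, 1000 bp to each side, overlapped a peak of both replicates by at least 1 bp. The height of a gene is the authors' signal value of its strongest such peak, called the enrichment value, whose scale is not stated. Its domain joins neighbouring peaks that lie no more than 1000 bp apart. The erythroid genes Klf1, Alas2 and Slc4a1 were marked, and Cd3d and Cd14 of other blood lineages were not. Slc4a1 was low, at 3.97 and 4.51 in replicates 1 and 2, against medians of 12.3 and 13.7 for marked coding genes. Gata1 had no peak at its listed 5' end but had one further inside the gene, described with Gm52419 below.

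A minority of remote lncRNA genes carried the mark. In replicate 1, 807 of 7946 had a peak (10.2%), and in replicate 2, 844 had one (10.6%), a mean of 10.4% ± 0.329 (SD, n = 2 replicates). Both replicates marked 756 genes, or 9.51% (95% Wilson interval 8.89 to 10.2%, counting error only, as for all intervals here). Protein-coding genes were marked in 47.3% and 47.9%, a mean of 47.6% ± 0.414, with 10133 of 21535 or 47.1% marked in both replicates. Over all 31495 lncRNA and coding genes the share was 37.8%. The remote lncRNA share was lower than the coding share, with a difference of −37.2 and −37.3 percentage points in the replicates (−37.2 ± 0.0845), which is far larger than the spread between replicates.

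LncRNA genes within 5000 bp of a coding 5' end were marked in 50.9% (1026 of 2014, 48.8 to 53.1%), close to the coding share. Against coding genes with no other coding 5' end within 5000 bp, of which 7210 of 17678 were marked (40.8%), the remote share was still lower in each replicate. ChIP has no strand, so a mark at a lncRNA start cannot be told apart from that of another start nearby. At the distance limit itself, 17 of 132 remote genes from over 5000 up to 6000 bp were marked (12.9%), against 30 of 111 genes from over 4000 up to 5000 bp (27.0%).

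**Figure D1:**
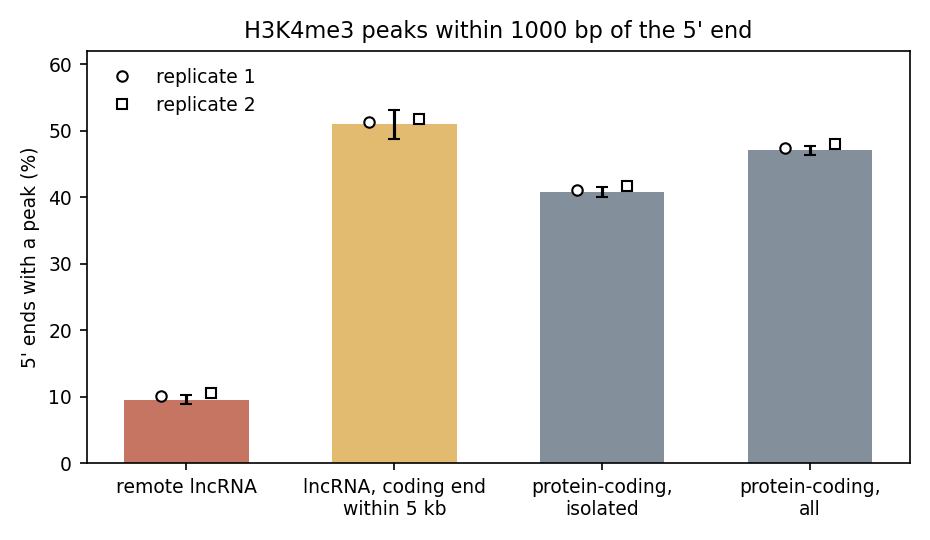
Share of genes (y axis, percent) with an H3K4me3 peak within 1000 bp of the 5' end, for remote lncRNA genes, lncRNA genes near a coding 5' end, isolated coding genes and all coding genes. Bars are genes marked in both replicates with 95% Wilson intervals, and open symbols are the replicates. Remote lncRNA genes stand at 9.51% and all coding genes at 47.1%.

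Fewer calls were shared between replicates at remote lncRNA genes. Of the genes called in replicate 1, 93.7% were also called in replicate 2, against 99.4% for coding genes. Of those called in replicate 2, 89.6% were called in replicate 1, against 98.2%. The genes called once were low: 51 in replicate 1 alone had a median value of 3.53 and 88 in replicate 2 alone had 3.47. The 5 highest of them were Gm10777 with 10.1 and Xist with 8.74 in replicate 1, and Gm39427 with 7.85, Gm27252 with 7.36 and Gm52859 with 6.25 in replicate 2.

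Marked remote lncRNA genes had lower and narrower peaks than marked coding genes in both replicates. Their median enrichment value was 7.83 in replicate 1 and 8.88 in replicate 2, against 12.3 and 13.7 for coding genes. The difference was −4.50 and −4.79, a mean of −4.64 ± 0.205 (SD, n = 2), and the ratio of medians was 0.635 and 0.650. The median domain spanned 1412 and 1444.5 bp, against 2260 and 2245 bp. That difference was −848 and −800.5 bp, a mean of −824 ± 33.6 bp, again larger than the spread between replicates. With no gap bridged (0 bp) the difference was −492 bp, so its size depends on how peaks are joined. The strongest peak alone was 817 and 895.5 bp wide, against 1184 and 1413 bp.

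The distributions overlapped. Of the 756 marked remote genes, 135 (17.9%) had a mean value above the coding median of 13.2, while 378 lay below 8.33, the 10th percentile of marked coding genes. For width, 191 (25.3%) exceeded the coding median of 2258 bp. Domains of at least 5000 bp occurred at 23 marked remote genes (3.04%), against 425 marked coding genes (4.19%). Between replicates, log2 values of the remote genes correlated with a Pearson r of 0.840 across genes, against 0.636 for coding genes. Values differed by more than 2-fold between replicates at 3.84% of marked remote and 4.49% of marked coding genes. A correlation also depends on the range of values. In replicate 1 the quartiles were 4.96 and 11.7 at remote genes and 9.57 and 15.5 at coding genes. Genes are not independent replicates, so these are descriptions. The strongest peaks of the replicates overlapped each other at 666 of the 756 marked remote genes (88.1%), against 86.3% of marked coding genes. At the other 90 the replicates' values come from different peaks of the same window. Among the genes named below these are C230035I16Rik, Lockd, Jpx, Mir22hg and Ttc39aos1.

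**Figure D2:**
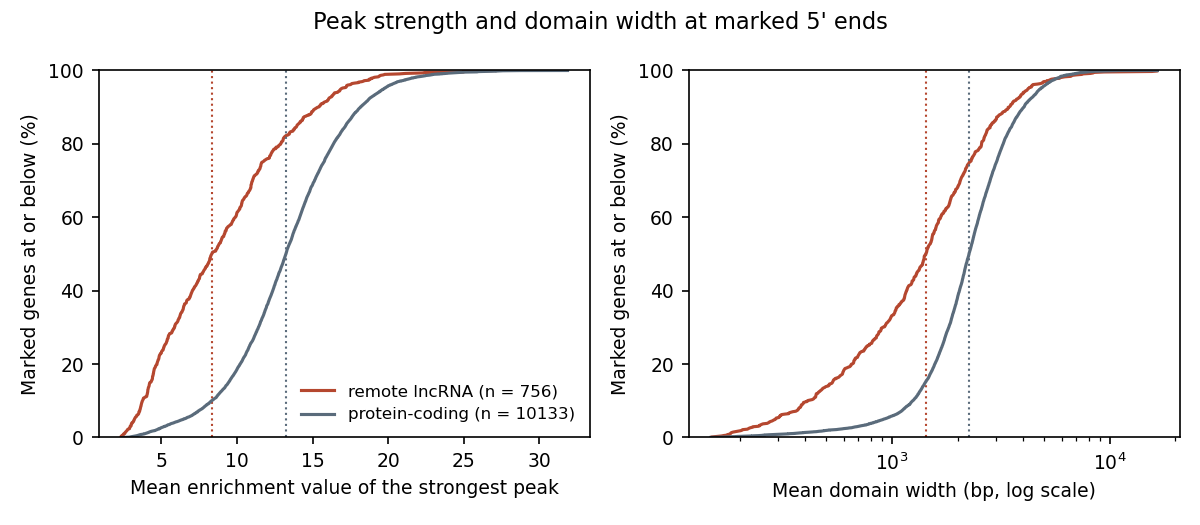
Cumulative share of marked genes (y axis, percent) by mean enrichment value of the strongest peak (left) and by mean domain width in bp on a log axis (right), for 756 remote lncRNA and 10133 coding genes. Dotted lines are the medians, 8.33 against 13.2 for the value and 1431.75 against 2258 bp for the width, so the lncRNA curves lie to the left.

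The point of the strongest peak lay downstream of the 5' end in 61.4% and 63.6% of marked remote genes, against 68.7% and 73.6% of marked coding genes. The median position was 137 and 130 bp downstream of the 5' end at remote lncRNA genes, against 303 and 174 bp at coding genes. The point lay within 500 bp of the 5' end in 56.2% and 59.4% of remote genes, against 52.8% and 72.1% of coding genes, so the order differed between replicates. The 5' end itself was covered by a peak in 382 (50.5%) and 412 (54.5%) of the marked remote genes, against 44.8% and 62.1% of the coding genes. For genes longer than 3000 bp, the same window was also placed at the 3' end. The 3' ends were not filtered by distance from a coding 5' end, so their windows can include coding promoters. The shares at the 2 ends of remote genes are therefore not a like comparison. Remote lncRNA genes were marked at 8.95% of 5' ends and 4.29% of 3' ends (282 of 6569, 3.83 to 4.81%). Coding genes were marked at 52.4% of 5' ends and 5.72% of 3' ends.

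**Figure D3:**
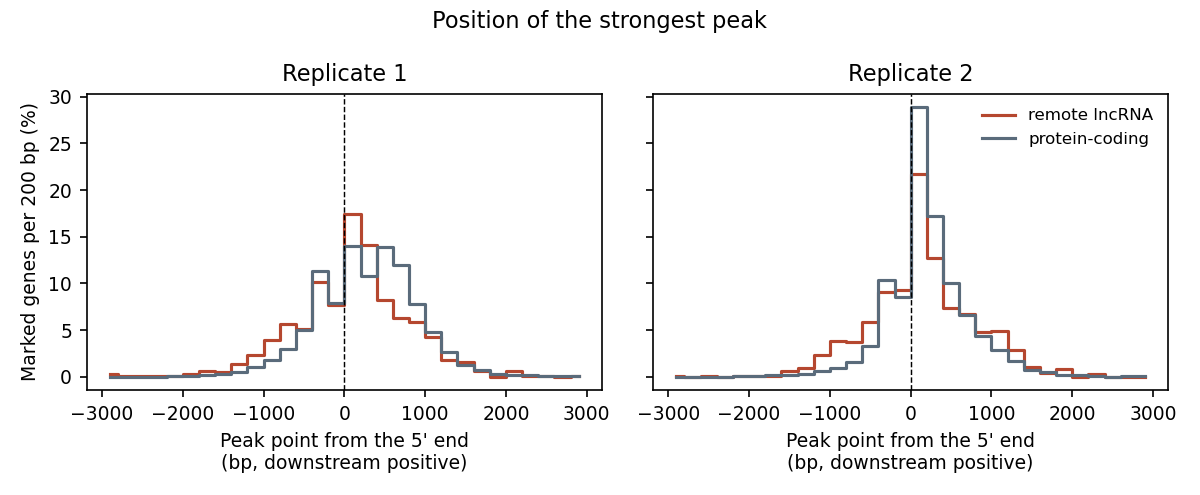
Position of the strongest peak's point relative to the 5' end (x axis, bp, downstream positive) as the share of marked genes per 200 bp (y axis, percent), in replicates 1 and 2. Points beyond 3000 bp are drawn at the edge. Both gene groups have their median downstream of the start, at 137 and 130 bp for remote lncRNA and 303 and 174 bp for coding genes.

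Marked promoters were richer in CpG than unmarked ones. It was counted in the 300-base sequence at the listed start nearest the 5' end, which 96.6% of remote lncRNA genes, 81.2% of coding genes and 92.1% of near lncRNA genes had, and marking was recomputed there. Marked remote promoters had a median of 6 CpG and unmarked ones 3, while marked coding promoters had 22 and unmarked ones 4. With 0 to 4 CpG, 5.29% of remote promoters were marked (256 of 4841), against 6.22% of coding promoters. With 5 to 9 the shares were 10.2% and 29.1%, and with 10 to 19 they were 20.1% and 66.6%. With 20 or more, 116 of 174 remote promoters were marked (66.7%, 59.4 to 73.2%), against 79.9% of coding promoters. The remote share was thus below the coding share in every bin, by the least at the lowest CpG content. Median values of marked remote genes also differed by bin, 5.49 and 5.87 in the replicates with 0 to 4 CpG and 11.95 and 12.85 with 20 or more.

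**Figure D4:**
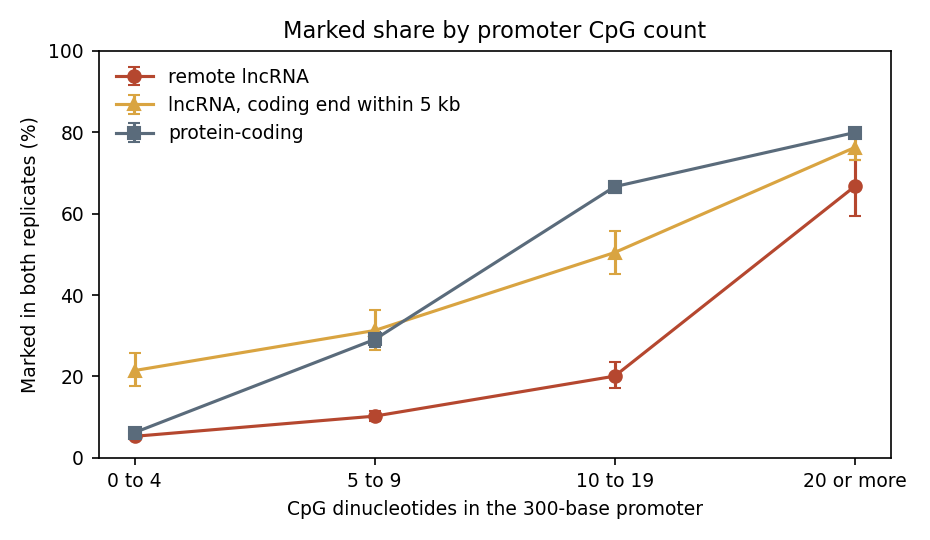
Share of genes marked in both replicates (y axis, percent, with 95% Wilson intervals) by the number of CpG dinucleotides in the 300-base promoter (x axis), for remote lncRNA, near lncRNA and coding genes. The share of remote lncRNA genes goes with CpG content, 5.29% in the lowest bin and 66.7% in the highest.

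Short motifs were searched on both strands of the same sequences. The GC box (GGGCGG) was in 28.4% of 704 marked remote promoters, 8.00% of 6974 unmarked ones and 35.7% of all 32851 promoters in the table. The ETS letters CCGGAAG were in 7.53%, 2.52% and 8.86% of these, and the E-box CACGTG in 7.95%, 5.31% and 7.15%. GATA letters, spelled AGATAA with A or T first and A or G last, the site of the erythroid factor GATA1, were in 36.6% of marked and 40.3% of unmarked remote promoters, against 29.8% of all. CACACCC, the site of erythroid Krüppel-like factors, was in 9.38%, 7.66% and 7.95%. TATAAA was in 12.8%, 18.04% and 13.6%, and CCAAT in 33.8%, 36.7% and 37.4%. The GC box, ETS and E-box letters contain CpG, which itself differed between marked and unmarked promoters.

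Distance from coding genes, annotation and position also went with the share. Among remote genes over 5000 and up to 10000 bp from the nearest coding 5' end, 13.9% were marked, and 13.6% from there up to 50000 bp. The share was 7.83% between that and 200000 bp and 2.63% beyond (38 of 1444, 1.92 to 3.59%). Coding genes at these distances from another coding gene were marked in 45.7%, 43.5%, 38.5% and 19.8%. Where the nearest coding gene was marked, 13.4% of remote genes were marked, against 6.56% where it was not. Genes with an NR or NM transcript record in RefSeq, called reviewed here, were marked in 15.0% (307 of 2047). The others, called predicted here, were marked in 7.61% (449 of 5899). The 275 remote genes that GENCODE M1 types as lincRNA were marked in 39.6% (34.04 to 45.5%), with median values of 11.3 and 12.3, and the 6562 absent from it in 8.02%. Genes with a Gm number were marked in 8.17%, and genes with an antisense or opposite-strand name in 16.8% (18 of 107). Genes with any other symbol, leaving out LOC numbers and Riken clones too, were marked in 25.1% (46 of 183).

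Genes outside coding genes and inside one on the opposite strand had like shares, 9.52% and 10.1%. On the same strand inside a coding gene it was 3.79% (8 of 211). On the X chromosome 10.2% were marked (20 of 196), and on the autosomes 9.51%. The gene table gives a single 5' end per gene, whereas the promoter table lists further starts. Of the remote genes, 109 lay within 1000 bp of such a further coding start, and 54 of them were marked (49.5%). Without the 180 genes within 5000 bp of one, 687 of 7766 were marked (8.85%).

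Remote lncRNA starts lay at a small part of the H3K4me3 regions far from the coding 5' ends used. A single 5' end per coding gene was used, so such regions can include further coding starts. LncRNA genes without a strand were not counted. Of 16423 regions with peaks of both replicates more than 5000 bp from every coding 5' end, 976 (5.94%) lay within 1000 bp of a remote lncRNA 5' end. The median enrichment value of these regions was 7.50 and their median width 836 bp, against 4.95 and 556 bp for the other distal regions. Among the 500 distal regions with the highest value, 83 (16.6%) were at a remote lncRNA 5' end. The marked genes were not all separate: the 756 shared 727 and 726 strongest peaks, and joining 5' ends within 1000 bp left 7830 starts, of which 732 were marked (9.35%).

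The highest marked gene, Gm33560 (5' end at chr7 position 141123231), had values of 23.1 and 31.3 in replicates 1 and 2. Its domain was short, 879 and 1235 bp, and the nearest coding gene, Ano9, 5425 bp away, was unmarked. Zeb2os, the antisense partner of the transcription factor gene Zeb2, had 24.1 and 27.0, in a domain of 9408 and 9444 bp that Zeb2 shares. In replicate 2 the strongest peak of Zeb2os was also that of Zeb2 and covered the Zeb2 5' end, so 27.0 is the value of both genes. A further listed start of Zeb2 lies 861 bp from the 5' end of Zeb2os. The divergent pair 4930555B11Rik and BB557941, shown above, had a common strongest peak of 30.5 and 19.5. It stood 38531 bp and 38608 bp from the unmarked coding gene Gm52512.

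Further listed coding starts lie close to several other high genes. For 1700052K11Rik (22.7 and 22.2) a start of the kinase gene Tlk2 is 94 bp away, for 4930405A21Rik (21.8 and 20.5) one of Dlgap4 is 56 bp away, and for 1110046J04Rik (17.8 and 23.7) one of Serpinb6a is 51 bp away. In contrast, Gm10451 (20.3 and 24.2), Gm52026 (17.7 and 21.9) and LOC115488151 (17.4 and 22.0) were 26898, 14110 and 110635 bp from any listed coding start. Of these genes, Gm10451 starts outside coding genes, Gm52026 inside one on the opposite strand and LOC115488151 inside one on the same strand. Their promoters held 6, 5 and 18 CpG.

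The widest domain, of 16575 and 16495 bp, spanned C230035I16Rik, Gm40833 and the coding gene Abt1 on chromosome 13. Gm51556 had 14653 and 16553 bp, with a further listed start of Gse1 1587 bp away. Neat1, the scaffold of paraspeckles, had 8385 and 8419 bp and values of 12.4 and 15.1. Malat1, an abundant RNA of nuclear speckles on the same chromosome, had 7749 and 7150 bp. Its values were 8.58 and 5.999, against medians of 7.83 and 8.88 for marked remote lncRNA genes. Gm35090 had 7560 and 7465 bp, and Gm46404 had 6914 and 7112 bp.

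Lockd is a lncRNA gene downstream of the cell cycle inhibitor gene Cdkn1b, and its locus is known to enhance Cdkn1b in mouse erythroid cells. It had a value of 22.8 in replicate 1, from a peak with its point at −2640 bp from the Lockd 5' end. In replicate 2 it had 15.4, from another peak with its point at 129 bp. These peaks did not overlap, so they are not 1 replicated height. Its domain was 5549 bp in replicate 1 and 11236 bp in replicate 2, where it was joined with that of Cdkn1b. Cdkn1b itself had a domain of 4307 and 11236 bp. Gm52419 lies inside Gata1, the master regulator of the erythroid lineage, on the opposite strand, and had values of 21.1 and 15.0 in a domain of 8481 and 7829 bp. A further listed start of Gata1 lies 1591 bp from it, and its own promoter had 3 CpG.

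Known lncRNA genes were described by lists written from textbook roles, but with earlier results of these data known. The shares below are thus descriptions and not independent contrasts. Of 85 entries, 53 were remote lncRNA genes and 29 of these were marked (54.7%). That compares with 9.51% of all remote genes, 15.0% of those called reviewed and 25.1% of those in the class of other symbols above. Another 22 entries lay near a coding 5' end and 10 had no strand or were not found in the table. Small nucleolar RNA hosts, whose introns release snoRNAs, were marked in 11 of 12, the exception being Snhg11. Among them, Snhg3 had values of 16.4 and 15.8, Epb41l4aos 14.9 and 13.8, and Snhg15 8.53 and 9.72. The others, Snhg4, Snhg5, Snhg7, Snhg8, Snhg12, Snhg16, Snhg17 and Snhg20, lay between 9.36 and 15.1 in replicate 1 and between 10.1 and 15.03 in replicate 2. The unmarked Snhg11 promoter holds 21 CpG.

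Nuclear body and widely expressed lncRNAs were marked in 6 of 7. Oip5os1, also named Cyrano, had 21.8 and 17.0. Norad, which binds Pumilio proteins and is tied to genome stability, had 17.8 and 16.7 in a domain of 495 bp in replicate 1. Pvt1, the neighbour of Myc, had 11.4 and 21.9, and Lncpint had 8.33 and 19.8, so replicate 2 was far higher at both. Miat, known from the nervous system, was unmarked although its promoter holds 25 CpG. The p53 pathway list, which shares Pvt1, Lncpint and Neat1 with the list above, was marked in 4 of 4, with Trp53cor1 (lincRNA-p21, beside Cdkn1a) at 10.7 and 12.3.

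Of the X inactivation genes, Jpx (22.0 and 14.7, from separate peaks), Ftx (14.4 and 17.2) and Firre (17.3 and 14.8) were marked. Xist, the RNA that coats the inactive X chromosome, had a peak in replicate 1 alone. The point of that peak lay at −1154 bp from the Xist 5' end, which the peak did not cover. Of 5 imprinted lncRNA genes, Kcnq1ot1, which silences its cluster in cis, had 16.8 and 11.1. H19, Airn, Meg3 and Mirg had no peak in either replicate.

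Blood cell lncRNAs were marked in 4 of 6. Morrbid, which controls the life span of short-lived myeloid cells, had 11.6 and 13.6, and Dleu2, host of miR-15a and miR-16, had 11.9 and 12.4. Ttc39aos1, known as lincRNA-EPS, which protects mouse erythroid precursors from cell death, had 4.65 and 7.78. Mir17hg, host of the miR-17-92 cluster, had 4.51 and 6.05, with the point of the strongest peak at −1989 and −1997 bp from the listed 5' end. Lincred1 and Mir155hg were unmarked, and the promoter of Mir155hg holds 0 CpG.

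MicroRNA hosts were marked in 5 of 14. Besides Dleu2 and Mir17hg these were Mirc35hg (12.02 and 17.5), Mir22hg (6.87 and 7.04) and Mir670hg (4.72 and 4.81). Among the others, Mir9-3hg, a neural host, was unmarked with 35 CpG, and Mir1a-1hg, a heart and muscle host, with 15. Dnm3os, Mir100hg, Mir124a-1hg, Mir155hg, Mir205hg, Mir217hg and Mir99ahg were also unmarked. The Hox cluster genes Hotair and Halr1 and all 7 neural and developmental genes, namely Rmst, Dlx6os1, Sox2ot, Tunar, Gm38509, Miat and Meg3, were unmarked in both replicates.

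**Figure D5:**
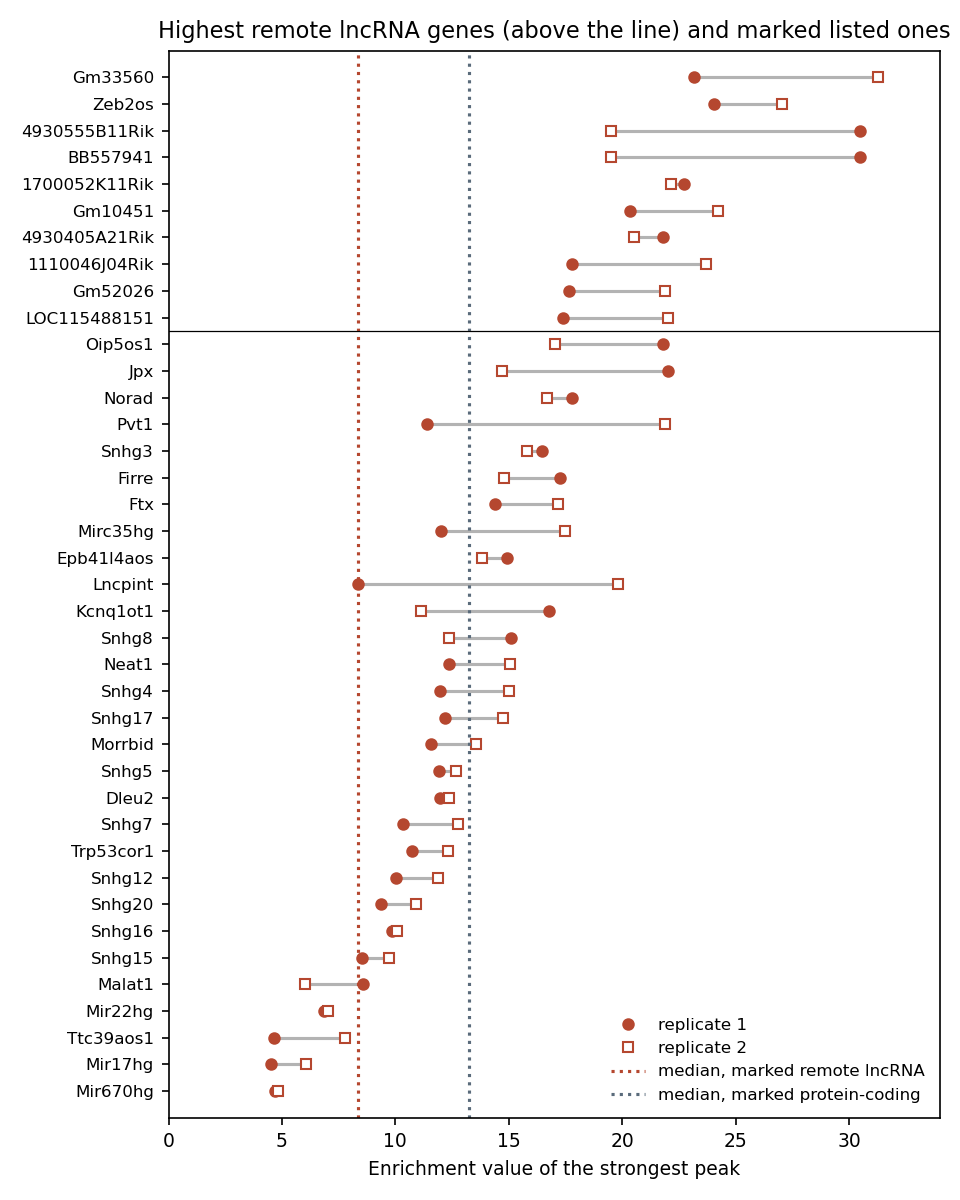
Enrichment value of the strongest peak (x axis) in replicate 1 (filled) and replicate 2 (open) for the 10 highest remote lncRNA genes, above the line, and for the marked genes of the known lncRNA lists. Dotted lines are the medians of marked remote lncRNA (8.33) and coding genes (13.2). Pvt1 and Lncpint show wide gaps between replicates.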

How the data were processed

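H3K4me3 ChIP-seq of 2 biological replicates was analysed from the peak lists that the authors deposited on mm10, 1 list per replicate. Per the file headers, each list derives from that replicate's own alignments. Not given in the sources used here are the aligner, the peak caller and its threshold. The deposited values per peak are a signal value of unstated scale and p and q values as −log10. The deposited lists hold no read counts, so depth is unknown, and precision comes from the replicates and from 95% Wilson intervals.

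Gene positions came from a RefSeq table of GRCm38.p6 without strand. Strand came from the RefSeq promoter table (9533 lncRNA genes) or from GENCODE M1 by symbol or synonym (427), and 2767 lncRNA genes without it were left out. Both sources gave the same strand for 16221 of 16265 genes. Transcripts of mm10 were not used.

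With 1 group of 2 samples there is no test between groups, so no p-value is given. The members and lists were chosen with earlier results of these data known. Named are the 10 marked genes with the highest mean value, the 10 with the widest mean domain, all listed genes, and the 5 highest genes marked in 1 replicate alone. Scripts were tested on simulated data and run in Python 3.11.15 with pandas 2.3.3 and scipy 1.17.1. Some of the genes used to check the cell line are not reported here.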

Additional observations from a re-analysis of the deposited data

How the results depend on the processing

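The lower share, lower value and narrower domain of remote lncRNA genes kept their direction under every alternative that gave a value. The share marked, 9.51%, and its difference from coding genes, −37.5 points, were 8.27% and −37.4 with a window of 500 bp, 11.6% and −37.1 with 2000 bp, 7.93% and −38.2 with peaks of −log10 q of at least 5, and 8.18% and −35.0 when the peaks of the replicates had to overlap by 50%. They were 10.1% and −37.0 with a distance of 2500 bp and 9.11% and −37.9 with 10000 bp. Against isolated coding genes the difference was −31.3 points. The difference in median value, −4.90, was −4.15, −5.47, −3.66, −4.31, −4.45 and −5.12 under the first 6 of these in the same order. The difference in median domain, −826 bp, was −747, −956, −683, −778, −789 and −861 bp, then −701 bp against isolated coding genes and −492 bp with a gap of 0 bp.

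Leaving out 1 replicate gave shares of 10.2 to 10.6%, differences of −37.3 to −37.2 points, −5.80 to −4.91 in value and −915 to −911.5 bp in width. Chosen after seeing the data were 4 more. Without genes within 5000 bp of another listed coding start, the values were 8.85%, −38.2 points, −5.20 and −888 bp. With listed starts in place of gene ends they were 9.17% and −39.5 points, and with the replicated set 9.88% and −878 bp. In the older mm9 set with GENCODE M1 lincRNA genes, 150 of 573 were marked (26.2%), a difference of −18.5 points and −227 bp. The ratio of median values there was 0.932, against 0.630 here, so the gene groups were closer in value there. The peak list, the build and the gene set all changed at once in that comparison, and the cause was not tested.

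No paired analysis was possible because the series has 1 group of samples. Differences between gene groups are given within each replicate, without a test. The limits are a single 5' end per gene, strand from 2 sources, unknown depth and an enrichment value of unstated scale. Many genes are predictions.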
